A study of Mus musculus with 20 samples.

Results

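The H3K4me1 landscape of Lin- bone marrow cells was compared between WT mice and mice in which Ep300 had been deleted. The autosomal peak lists of the 2 H3K4me1 libraries, 1 for each genotype, were merged into 120490 regions, of 134543 H3K4me1 regions found when the lists of all 4 genotypes of the series were merged. A region was lost if no Ep300Δ/Δ peak overlapped it by at least 1 bp, gained if no WT peak did, and retained otherwise. By this rule 36651 regions were lost, 20130 were gained, and 63709 were retained.

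H3K4me1 is the monomethylated form of lysine 4 of histone H3, and it marks enhancers whether or not they are active. It is laid down at enhancers mainly by the methyltransferases MLL3 and MLL4, which Kmt2c and Kmt2d encode. p300, the product of Ep300, is an acetyltransferase that places, together with its paralog CBP (Crebbp), H3K27ac, a mark of active enhancers and promoters. H3K4me3 marks the starts of transcribed genes. In blood progenitors, many enhancers of later lineages carry H3K4me1 without H3K27ac, a state usually called primed.

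The WT mice were Ep300 fl/fl and the Ep300Δ/Δ mice, labelled p300 Knockout, were Mx1-Cre; Ep300 fl/fl, all on C57BL/6. Libraries of Tet2-/- mice, which were Ep300 fl/fl;Tet2-/-, and of Ep300Δ/ΔTet2-/- mice, which were Mx1-Cre;Ep300 fl/fl;Tet2-/-, were used for comparison. All 4 groups were injected with poly(I:C), which induces the interferon-responsive Mx1 promoter and so Cre, in 3 doses starting at 6 to 8 weeks of age, and were generally studied 2 weeks later. Each library came from 25M Lin- cells, that is, cells depleted of those carrying mature lineage markers, and whether the cells of several mice were pooled was not given in the sources used here. With 1 library per genotype, no difference below has a replicate check or a P value, and all 95% intervals are exact Clopper-Pearson intervals that cover counting error only. Fewer cells of a type in the Lin- pool and less of a mark per cell cannot be told apart in such libraries.

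The WT list held 106260 autosomal peaks over 64.4 Mb and the Ep300Δ/Δ list 89936 peaks over 54.7 Mb, and the depth behind them is unknown because peak lists carry no read counts. The lists give each peak a fold enrichment over the H3 library, which ranks peaks within a list and is not an amount to set one list against the other. Blood genes carried H3K4me1 as the tissue label implies: all 18 stem and progenitor genes, all 16 granulocyte and monocyte genes, and all 12 erythroid genes examined had at least 1 region. So did 11 of 15 T and NK cell genes, the others being Cd3e, Cd3g, Bcl11b, and Themis, and 6 of 14 neuronal genes. At Ep300 itself (chr15:81585351-81652077, GRCm38) 1 region was lost, 1 was gained, and 2 were retained. The position of the excised part was not given in the sources used here, so these peaks do not check the deletion.

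The DNA under the regions that stand at the head of each class is shown first, as 201 bases centered on the summit in the list that holds the peak. Capitals mark matches, on either strand, to the letters of 11 motifs searched outside promoters (AGATAA for GATA factors, CCGGAAGT for ETS, GAGGAAGT for PU.1, AACCACA for RUNX, TTGCNNAA for C/EBP, TGANTCA for AP-1, GAAANNGAA for IRF, CAGCTG for E-box factors, TAACNG for MYB, GGGANTTTC for NF-kB, and AGGGGGCG for CTCF), none of which is contained in another. All sequences are the plus strand of GRCm38. The first pair are the lost regions with the highest fold enrichment in WT, near Sp3os (chr2:73039556-73039756) and in an intron of Pip4k2a (chr2:18992701-18992901). The second pair are the gained regions with the highest fold enrichment in Ep300Δ/Δ, at the Kidins220 promoter (chr12:25014498-25014698) and in an intron of Fam168b (chr1:34838508-34838708). The last pair lie outside promoters and changed in H3K27ac too, 1 lost with its acetylation in an intron near Srgn (chr10:62542555-62542755), and 1 gained with new acetylation beside Gm8990, nearest to the coding gene Depdc1b (chr13:108292849-108293049).
Sp3os, lost: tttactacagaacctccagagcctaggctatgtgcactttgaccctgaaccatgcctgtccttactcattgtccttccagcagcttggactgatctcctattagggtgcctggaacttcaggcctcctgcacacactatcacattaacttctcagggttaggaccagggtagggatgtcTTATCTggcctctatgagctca
Pip4k2a, lost: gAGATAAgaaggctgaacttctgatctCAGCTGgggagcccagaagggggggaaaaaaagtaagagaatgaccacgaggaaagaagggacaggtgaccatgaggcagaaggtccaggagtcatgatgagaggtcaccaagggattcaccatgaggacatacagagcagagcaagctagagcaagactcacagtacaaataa
Kidins220, gained: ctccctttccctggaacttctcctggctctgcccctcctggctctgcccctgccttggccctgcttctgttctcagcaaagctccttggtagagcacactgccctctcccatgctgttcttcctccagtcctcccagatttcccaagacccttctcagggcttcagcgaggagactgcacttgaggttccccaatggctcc
Fam168b, gained: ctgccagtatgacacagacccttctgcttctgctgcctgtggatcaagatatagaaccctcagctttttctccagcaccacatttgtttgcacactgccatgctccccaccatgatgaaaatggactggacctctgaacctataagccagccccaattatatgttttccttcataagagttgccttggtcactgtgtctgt
Srgn, lost with H3K27ac: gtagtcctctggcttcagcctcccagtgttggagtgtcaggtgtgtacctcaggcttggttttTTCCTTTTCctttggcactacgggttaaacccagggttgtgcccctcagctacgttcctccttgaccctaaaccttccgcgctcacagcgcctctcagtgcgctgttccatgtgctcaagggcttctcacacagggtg
Gm8990, gained with H3K27ac: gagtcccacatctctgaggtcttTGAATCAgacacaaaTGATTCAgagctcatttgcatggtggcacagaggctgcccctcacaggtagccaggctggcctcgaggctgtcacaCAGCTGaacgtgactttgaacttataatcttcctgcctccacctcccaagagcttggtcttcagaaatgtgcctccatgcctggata

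Lost regions outnumbered gained ones, by 1.82 to 1. Of the 100360 regions with a WT peak, 36.5% were lost (95% interval, 36.2% to 36.8%), and of the 83839 regions with an Ep300Δ/Δ peak, 24.0% were gained (23.7% to 24.3%). These shares are the background against which every group below is read. The excess of lost regions moved with the length of the lists: when both were cut to 89936 peaks by their q values, 26837 regions were lost and 25708 gained, or 1.04 lost for each gained. With a −log10 q of at least 5 required in both lists, the ratio was instead 3.77. How much of the excess is turnover of the mark and how much is peak calling was not tested. Between the same genotypes, H3K27ac shifted further toward loss, with 39.9% of WT regions lost, 12.9% of Ep300Δ/Δ regions gained, and 4.50 lost for each gained, and H3K4me3 had the lowest shares, with 15.5% lost and 11.3% gained. The H3K27ac lists differed in length too, with 29012 and 22190 autosomal peaks. Cut to equal size, an alternative chosen after seeing the data, they gave 26.8% lost, 18.9% gained, and 1.57 lost for each gained, and the H3K4me3 lists 12.6%, 12.8%, and 0.982.

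The H3K4me1 regions that differed were mainly weak and narrow ones. Lost regions had a median width of 303 bp and a median WT fold enrichment of 4.03, and the WT peaks of a retained region covered a median of 578 bp, with a fold enrichment of 5.06. Gained regions had a median width of 285 bp, and the Ep300Δ/Δ peaks of a retained region covered a median of 542 bp. With the regions ranked by fold enrichment into 10 bins of equal size, 5.92% of the strongest bin of WT regions were lost, compared with 52.8% of the weakest. Of the strongest bin of Ep300Δ/Δ regions 2.28% were gained, and the share leveled off between 32.0% and 36.8% in the weaker 5 bins. Because the outcome moved so much with strength, the comparisons by place, sequence, H3K27ac state, and Tet2 background were repeated within 4 strength bins of equal size, in which bin 1 holds the highest and bin 4 the lowest fold enrichments.

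**Figure D1:**
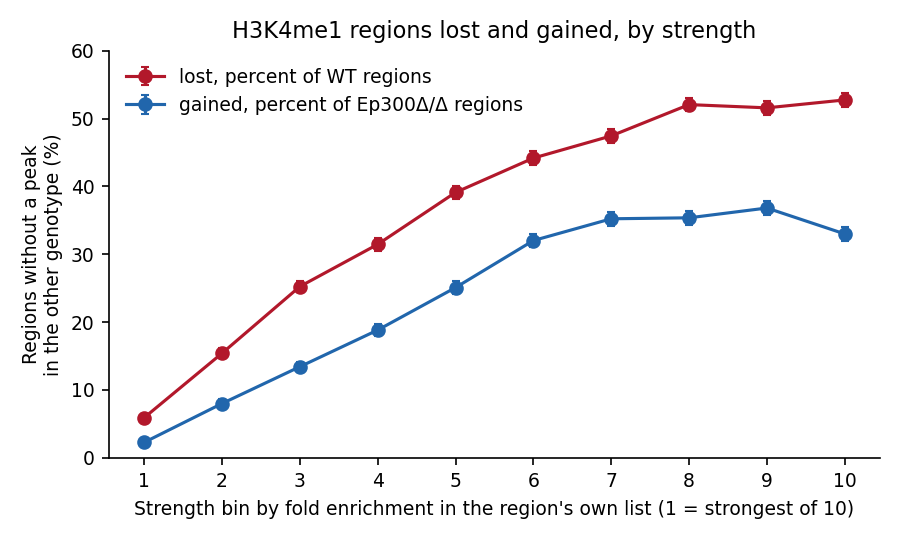
Share of H3K4me1 regions with no peak in the other genotype (vertical axis, percent) for 10 bins of regions ranked by fold enrichment in their own list (horizontal axis, 1 is strongest). Red points are lost regions among WT regions and blue points gained regions among Ep300Δ/Δ regions, with 95% Clopper-Pearson bars; loss climbs from 5.92% to 52.8% and gain from 2.28% to 33.0%.

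Of the retained regions, which overlap chose, 84.7% held 1 WT and 1 Ep300Δ/Δ peak. WT peaks covered 51.3 Mb within the retained regions and Ep300Δ/Δ peaks 48.1 Mb, and the WT peaks covered more bases in 57.01% of the regions and fewer in 42.7%. Many lost regions lay close to a retained or gained peak: an Ep300Δ/Δ peak was found within 500 bp of 32.0% of them and within 5000 bp of 73.5%. The other 9711 lost regions, and 5562 gained regions, had no peak of the other genotype within 5000 bp.

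The 5 strongest lost regions lay within 2859 bp of an Ep300Δ/Δ peak. The region near Sp3os, an antisense transcript beside the zinc finger factor gene Sp3, had a WT fold enrichment of 13.4, carried H3K27ac in WT only, and lay 442 bp from the nearest Ep300Δ/Δ peak. Those in introns of Pip4k2a, a phosphoinositide kinase gene, and of Kat6b, a histone acetyltransferase gene, had fold enrichments of 13.3 and 13.2 and lay 908 bp and 328 bp from such a peak. The fourth, at the promoter of Ccr3, the eotaxin receptor of eosinophils, had a fold enrichment of 12.2, lost H3K27ac as well, and lay 2859 bp from such a peak. The fifth, between genes near Cyp4f18, a fatty acid hydroxylase gene, had a fold enrichment of 12.1 and an Ep300Δ/Δ peak at 116 bp. Each of these 5 had a peak in both the Tet2-/- and the Ep300Δ/ΔTet2-/- list.

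Among lost regions outside promoters with no Ep300Δ/Δ peak within 5000 bp, of which there were 7234, the strongest lay in an exon of Ptprk, a receptor tyrosine phosphatase gene, with a fold enrichment of 11.3 and the nearest Ep300Δ/Δ peak 24295 bp away. The next was in an intron of Slc7a11, the cystine transporter gene, with a fold enrichment of 10.6, a WT-only H3K27ac peak, and no Ep300Δ/Δ peak for 56076 bp. Those in an exon of Vps13c, a lipid transfer protein gene, and between genes near A130077B15Rik, with Ppm1h, a protein phosphatase gene, as the nearest coding gene, had fold enrichments of 10.4 and 9.80 and were absent from both Tet2-deficient lists too. The region near Gm9013, with Atp8a2 as its nearest coding gene, had a fold enrichment of 10.1 and was present in Tet2-/- but not in Ep300Δ/ΔTet2-/- cells.

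The strongest gained region, at the promoter of Kidins220, a scaffold protein gene of neurotrophin and antigen receptor signaling, had a fold enrichment of 10.7 and lay 28694 bp from the nearest WT peak. It was followed by Fam168b at 9.91 and by Ccnf, the cyclin F gene, at 9.86, the latter between genes and 7627 bp from a WT peak. The promoter region of Cmah, which makes N-glycolylneuraminic acid, had 9.82, and an intron region near Gm43787, with Wdfy3 as its nearest coding gene, had 9.74. None of these 5 overlapped an H3K27ac peak in either genotype. The isolated gained regions outside promoters were led, after the one near Ccnf, by introns of Rubcn, an inhibitor of autophagy, at 9.72, an intron region near Gm15897 and Snx29 at 9.21, an intron of Oxsr1, a stress-responsive kinase gene, at 8.69, and a region near Alyref, an mRNA export factor gene, at 8.51.

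Promoters kept H3K4me1 more often than other places. Promoters, here 3000 bp on either side of any transcript start, held 34.2% of lost, 42.5% of gained, and 47.1% of retained regions, and intergenic sequence held 24.7%, 18.9%, and 17.6%. Read the other way, 29.5% of WT regions at promoters were lost (29.0% to 29.9%), against 36.7% in exons, 40.6% in introns (40.1% to 41.2%), and 44.7% between genes (44.0% to 45.4%). The order promoter, intron, intergenic held in every strength bin, from 9.54%, 14.8%, and 18.1% in the strongest to 44.2%, 57.8%, and 60.5% in the weakest. The gained share was 22.2% of Ep300Δ/Δ regions at promoters, 19.2% in exons, 26.7% in introns, and 25.4% between genes. In the strongest bin the promoter and intron shares were 6.23% and 6.53%, with intervals that overlapped, and the exon share was lower, at 2.69% (1.81% to 3.84%). The median distance to the nearest transcript start was 6.07 kb for lost, 4.39 kb for gained, and 3.51 kb for retained regions.

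**Figure D2:**
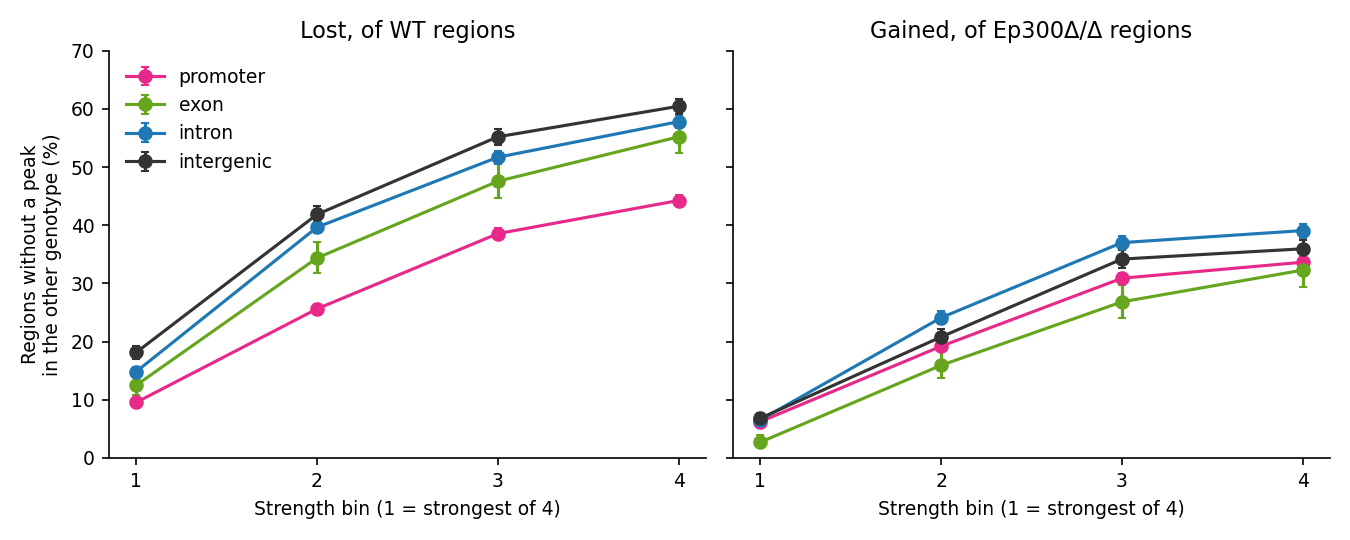
Share of H3K4me1 regions lost (left, of WT regions) and gained (right, of Ep300Δ/Δ regions) on the vertical axes, in percent, by strength bin (horizontal axes, 1 is strongest of 4) and by place, with 95% Clopper-Pearson bars. On the left the promoter line lies below the intron and intergenic lines in every bin, ending at 44.2% against 57.8% and 60.5%; on the right the exon share is lowest in every bin, at 2.69% in the strongest.

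The loss was spread over the genome. The lost share ran from 31.8% of WT regions on chromosome 11 to 40.1% on chromosome 3, the gained share from 21.2% on chromosome 17 to 27.4% on chromosome 13, and lost outnumbered gained regions on each of the 19 autosomes, by 1.64 to 2.03 times.

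Base composition set the changing regions apart modestly. In 501-bp windows outside promoters, the median G+C content was 47.1% at lost summits and 48.5% at retained ones, and annotated repeats took up 20.6% and 16.6% of the bases. Within the strongest bin the gap was wider, 45.5% against 48.3%. Gained summits had 46.7% G+C and 19.0% repeats, so that lost and gained regions differed from the retained ones in the same direction.

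Motif letters differed little between classes, by under 2 percentage points for each of the 11 within 100 bp of the summit. The C/EBP letters lay at 7.91% of lost summits (7.57% to 8.26%) and 6.93% of retained summits (6.66% to 7.21%), against 7.34% of all WT regions outside promoters, and lost exceeded retained in all 4 strength bins, with 8.92% against 6.71% in the strongest. C/EBP factors direct granulocyte and monocyte differentiation. At gained summits the C/EBP share was 7.03%, and at retained summits of the Ep300Δ/Δ list 7.02%. The GATA letters, bound by the factors of stem, erythroid, megakaryocyte, and mast cells, lay at 9.67% of gained summits (9.14% to 10.2%) and 8.33% of retained ones (8.04% to 8.63%), against 8.68% of all Ep300Δ/Δ regions outside promoters, and gained exceeded retained in all 4 strength bins. The IRF letters, named for the interferon regulatory factors, lay at 5.47% of gained and 4.42% of retained summits, against 4.69% of all. E-box letters were less frequent at lost (15.8%) and gained (15.1%) than at retained summits (17.0% and 16.7%), with 16.5% and 16.3% over all. A match is a run of letters and no evidence of binding. Lost and gained summits had the lower G+C content noted above, and its part in these shares was not tested.

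Most lost and gained regions carried no H3K27ac. Of the lost regions, 93.2% overlapped no H3K27ac peak in either genotype, 4.05% (1485 regions) had one in WT only, and 2.49% had one in both. Of the gained regions, 89.6% had none, 6.70% had one in both, 2.24% (450 regions) had one in WT only, and 1.49% (300 regions) had one in Ep300Δ/Δ only. Of the retained regions, 15.1% were acetylated in both, 11.2% (7144 regions) in WT only, 2.04% in Ep300Δ/Δ only, and 71.6% in neither. Retained regions are wider and so meet more peaks, but in windows of 250 bp on either side of the WT summit the shares with a WT H3K27ac peak were still 7.27% for lost and 23.0% for retained regions.

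Outside promoters, the loss of H3K4me1 followed H3K27ac in steps. Among WT regions acetylated in both genotypes 4.09% lost H3K4me1 (3.45% to 4.82%), among those acetylated in WT only 17.5% did (16.4% to 18.6%), and among those acetylated in neither 47.0% did (46.6% to 47.5%). The order was the same in each strength bin, from 1.08%, 8.18%, and 21.04% in the strongest to 18.5%, 38.2%, and 60.3% in the weakest, and in the windows of equal width, with 5.79%, 18.8%, and 46.3%. Regions that lost acetylation thus lost H3K4me1 more often than regions that kept it, and less often than regions with no acetylation in either list.

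**Figure D3:**
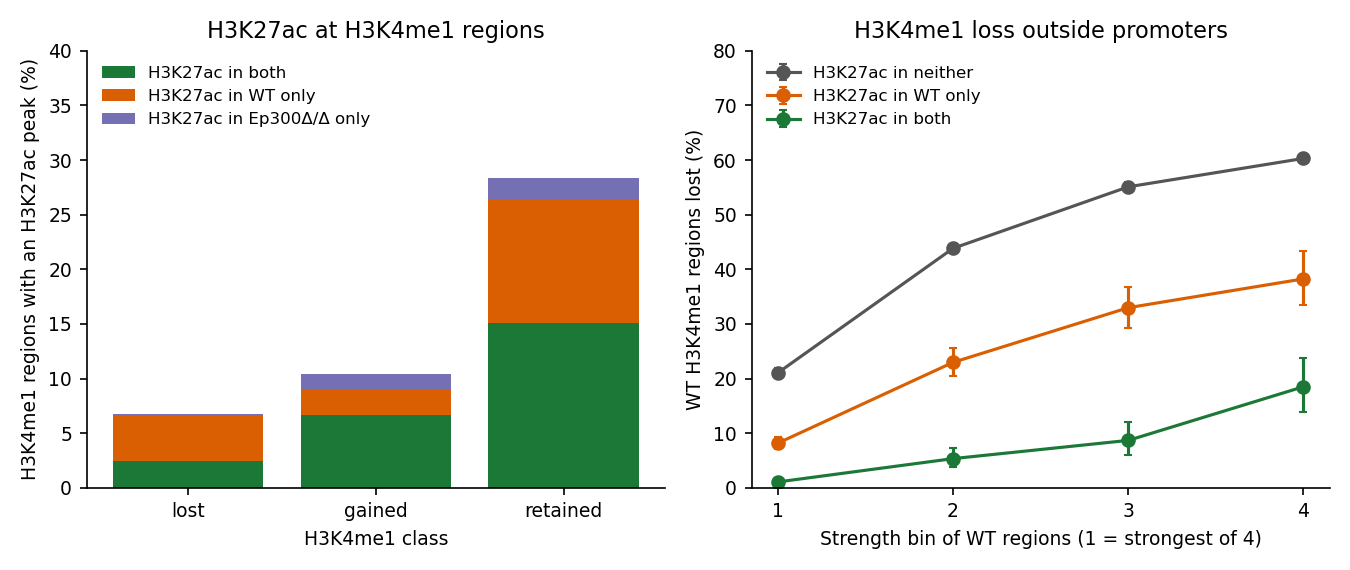
Left, share of lost, gained, and retained H3K4me1 regions (vertical axis, percent) with an H3K27ac peak in both genotypes, in WT only, or in Ep300Δ/Δ only; the rest, 93.2% of lost, 89.6% of gained, and 71.6% of retained regions, had none. Right, share of WT H3K4me1 regions outside promoters that were lost (vertical axis, percent) by strength bin (horizontal axis, 1 is strongest) and by H3K27ac state, with 95% Clopper-Pearson bars; the 3 lines keep their order in each bin.

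Seen from the acetylation side, most H3K27ac loss left H3K4me1 in place. Of the 6635 regions outside promoters that lost H3K27ac, 73.9% had an H3K4me1 peak in both genotypes (72.8% to 74.9%), 12.5% had one in WT only, 2.86% in Ep300Δ/Δ only, and 10.8% in neither. Of the 3955 that kept H3K27ac, 88.2% had H3K4me1 in both and 3.26% in WT only. Of the 1103 that gained H3K27ac, 71.3% already had H3K4me1 in both and 12.8% had it in Ep300Δ/Δ only.

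Outside promoters, H3K27ac in WT only was found at 11.5% of retained and 3.41% of lost regions, the latter being 823 regions that lost both marks. The highest WT H3K27ac fold enrichment among them, 25.8, was in the intron region near Srgn, which encodes serglycin, the core proteoglycan of secretory granules, and whose H3K4me1 fold enrichment was 6.24. It was followed by a region nearest to the coding gene Mro (24.8), one 3068 bp from Nfil3, a basic leucine zipper repressor gene (22.7), one near Amn1 (21.2), and one near Hdgf, a growth factor gene (21.02). All 5 lay within 219 bp of an Ep300Δ/Δ H3K4me1 peak. H3K27ac in Ep300Δ/Δ only was found there at 1.62% of retained and 0.993% of gained regions, the latter being 115 regions that gained both marks. Their H3K27ac fold enrichment in Ep300Δ/Δ reached 11.3 beside Gm8990 and Depdc1b. The next were an intron region nearest to the coding gene Nek7, a mitotic kinase that also acts in the inflammasome (8.92), regions near Tubgcp5, a gamma-tubulin complex gene (8.07), and, as nearest coding gene, Tomm7, a mitochondrial import gene (6.70), and an intron of Rftn1, a lipid raft linker gene (6.35).

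H3K4me3 lay mainly at retained regions. A WT H3K4me3 peak overlapped 9.69% of lost and 31.9% of retained regions, and an Ep300Δ/Δ H3K4me3 peak 19.8% of gained regions. At promoters, 39.7% of gained regions carried H3K4me3 in Ep300Δ/Δ, and 34.9% carried it in both genotypes, so that most H3K4me3 there was present in WT too. H3K4me3 was found in WT only at 1.94% of lost and 3.90% of retained regions. It was found in Ep300Δ/Δ only at 2.85% of gained and 2.01% of retained regions. Among regions with H3K4me3 in WT, it was absent in Ep300Δ/Δ at 710 of 3553 lost and 2485 of 20313 retained regions. Among regions with H3K4me3 in Ep300Δ/Δ, WT lacked it at 573 of 3976 gained and 1282 of 19110 retained regions.

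The same regions were then looked up in Tet2-/- and Ep300Δ/ΔTet2-/- cells, 2 further H3K4me1 libraries that the classes did not use. Tet2 encodes a 5-methylcytosine dioxygenase. Of the lost regions, 49.9% had a peak in Tet2-/- and 33.1% in Ep300Δ/ΔTet2-/- cells, and 41.2% had neither. Of the gained regions, 45.6% had a peak in Tet2-/- and 46.5% in Ep300Δ/ΔTet2-/- cells. Where a lost region had a Tet2-/- peak, that peak was missing in Ep300Δ/ΔTet2-/- cells in 51.7% of cases (51.0% to 52.4%), compared with 10.5% for retained regions (10.2% to 10.7%) and 30.9% for all Tet2-/- regions. In the strongest WT bin these shares were 41.9% and 5.15%, and in the weakest 56.1% and 16.5%. In the other direction, 27.2% of the lost regions with an Ep300Δ/ΔTet2-/- peak had none in Tet2-/-, against 7.59% of retained regions. These 2 lists differed in length too, with 96818 autosomal peaks over 69.1 Mb in Tet2-/- and 92348 over 57.6 Mb in Ep300Δ/ΔTet2-/-. The part of list length in the difference between the 2 directions was not tested. Gained regions changed about equally in both directions: 36.6% of those with an Ep300Δ/ΔTet2-/- peak had none in Tet2-/- (3424 of 9361), and 35.4% of those with a Tet2-/- peak had none in Ep300Δ/ΔTet2-/- (3251 of 9188). The first share was 7.59% for retained and 23.3% for all Ep300Δ/ΔTet2-/- regions, and in the strongest bin it was 26.1% for gained and 3.002% for retained regions. Within the 501-bp windows the loss shares were 49.9% and 11.1%.

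**Figure D4:**
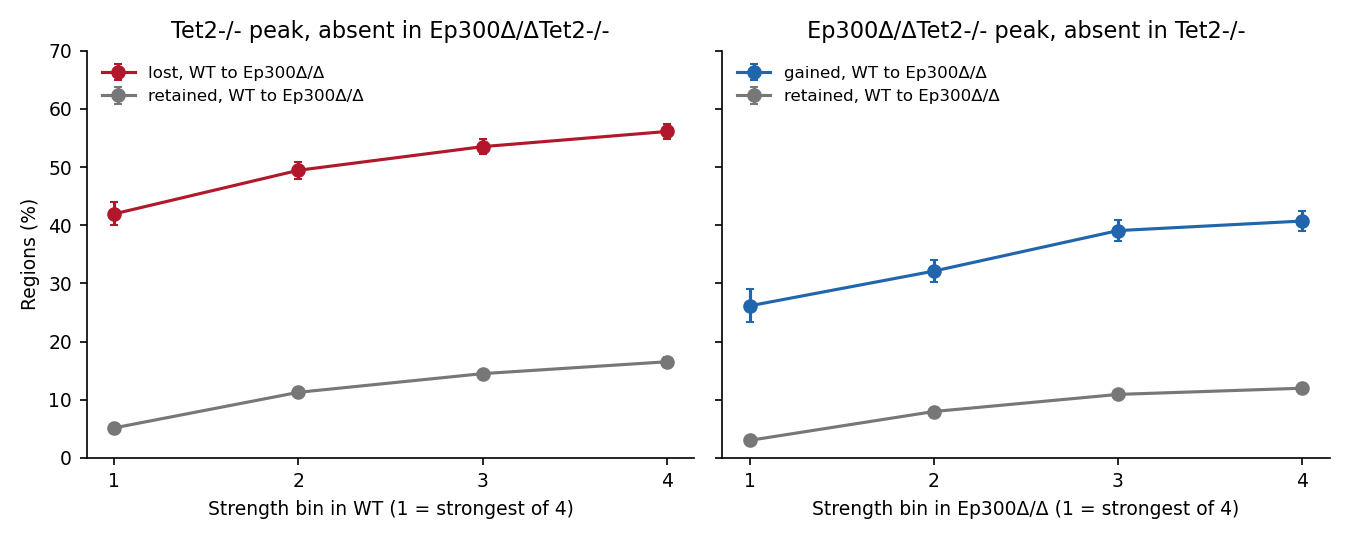
Left, of the H3K4me1 regions with a Tet2-/- peak, the share without a peak in Ep300Δ/ΔTet2-/- cells; right, of those with an Ep300Δ/ΔTet2-/- peak, the share without a Tet2-/- peak (vertical axes, percent), by strength bin in the WT or Ep300Δ/Δ list (horizontal axes, 1 is strongest of 4) with 95% Clopper-Pearson bars. Red and blue are regions lost and gained from WT to Ep300Δ/Δ and gray those retained, which lie lower in each bin, at 5.15% against 41.9% on the left and 3.002% against 26.1% on the right in the strongest. The reverse change of gained regions, which is not drawn, was about as frequent, at 35.4% against 36.6% over all bins.

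Regions were assigned to genes by the closest transcript start, which does not show that it acts on that gene. The regions fell to 24739 genes, of which 14676 had a lost region, 11462 a gained one, and 6857 both; 2345 genes had lost regions alone and 1985 gained regions alone. More regions were lost than gained at 11047 genes and the reverse held at 6053.

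The genes with most lost regions were Aff1, a subunit gene of the super elongation complex, with 39 lost, 6 gained, and 38 retained; Igf1r, the receptor for insulin-like growth factor, with 36, 8, and 61; Asap1, an Arf GTPase-activating protein gene, with 35, 16, and 62; Chd7, a chromatin remodeler gene, with 35, 2, and 13; and Pde4d, a cAMP phosphodiesterase gene, with 34, 16, and 48. Dapk2, a death-associated kinase gene, had 31 lost and 1 gained, Abtb2 31 and 2, and Map4k4, a kinase gene whose excess of lost regions tied with that of Igf1r, 33 and 5. Genes with many regions head such a list: the lost share of WT regions was 37.1% at Igf1r and 36.1% at Asap1, near the 36.5% of all regions, 41.5% at Pde4d, 50.6% at Aff1, and 72.9% at Chd7. Acetylated regions numbered 12 in WT and 4 in Ep300Δ/Δ at Aff1 and 8 and 3 at Chd7, against 20969 and 13574 over all H3K4me1 regions. The longest uninterrupted run of lost regions, 16 in a row, spanned 53.4 kb at Chd7 (chr4:8719059-8772430), and a second run of 11 lay beside it at chr4:8666938-8710950. Of the 16 regions in the longer run, 8 had a Tet2-/- peak and 4 an Ep300Δ/ΔTet2-/- peak, against 49.9% and 33.1% of all lost regions.

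The gained counts were led by Foxp1, a forkhead factor gene with 21 gained and 25 lost regions, Sik3 with 21 gained, Msi2 with 18, and 16 each at Asap1, Pde4d, and Rere, a transcriptional corepressor gene. As shares of the Ep300Δ/Δ regions these were 23.3% at Foxp1, 20.5% at Asap1, 25.0% at Pde4d, and 26.2% at Rere, near the 24.0% of all regions, and 47.7% at Sik3 and 35.3% at Msi2. Among protein-coding genes, gain exceeded loss by the widest margin at Msi2, Sik3, Sesn1, and Hivep3, followed by Arid1b and Zfp521, which tied. Msi2, which encodes an RNA-binding protein that maintains hematopoietic stem cells, had 1 lost, 18 gained, and 33 retained regions. Sik3, a salt-inducible kinase gene, had 7 lost and 21 gained, Sesn1, a stress-induced regulator of mTORC1, 1 and 12, Hivep3, a zinc finger gene, 4 and 14, Arid1b, a subunit gene of the BAF remodeling complex, 5 and 14, and Zfp521, a progenitor zinc finger gene, 3 and 12. Dnmt3a, the de novo DNA methyltransferase gene, with 1 and 9, was picked after its values were seen. Acetylated regions at Msi2 numbered 4 in WT and 3 in Ep300Δ/Δ, and at Sesn1 1 in each. With lists of equal size the balance was unchanged in direction at Aff1 (31 lost, 8 gained), Chd7 (25 and 3), Msi2 (0 and 21), Sik3 (4 and 23), and Sesn1 (1 and 13), and it turned at Foxp1 (21 and 25), while over all regions there was then 1.04 lost for each gained.

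Gene lists of the blood lineages were set against all regions, with no test between lists. At the mast cell and basophil genes 51.7% of WT regions were lost (30 of 58; 38.2% to 65.0%) and 9.68% of Ep300Δ/Δ regions gained (3 of 31; 2.04% to 25.8%), against the 36.5% and 24.0% of all regions, of which the first lay below the interval and the second within it. Prg2, the eosinophil major basic protein gene, had 8 lost, 0 gained, and 4 retained regions, Il1rl1, the IL-33 receptor gene, had 7, 1, and 13, and Hdc, the histamine-producing enzyme gene, had 5, 2, and 9. All 5 regions at Epx, the eosinophil peroxidase gene, were lost. Without these eosinophil genes, Prg2 and Epx, 41.5% of the list's WT regions were lost (17 of 41; 26.3% to 57.9%), and that interval held the background. Lists of equal size without them gave 8 of 30 lost (26.7%; 12.3% to 45.9%) and 5 of 27 gained (18.5%), both below the shares of all regions at that size. With lists of equal size, 18 of 42 regions of the whole list were lost (42.9%; 27.7% to 59.0%) and 7 of 31 gained (22.6%), against 31.5% and 30.6% over all regions, and both intervals held these shares. With the closest protein-coding start, the gained share was 8.33% (1.75% to 22.5%), and its interval left out the 24.0% of all regions. Acetylated regions at the list numbered 14 in WT and 3 in Ep300Δ/Δ, against 20969 and 13574 over all regions. Fcer1a, a defining mast cell marker, had no region in either genotype, and Ms4a2 had 1, which was retained.

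At the granulocyte and monocyte genes the lost share was 39.7% (46 of 116; 30.7% to 49.2%), near that of all regions, and the gained share 11.4% (9 of 79; 5.34% to 20.5%), below it. Lost regions outnumbered gained ones at 12 of the 16 genes and the reverse held at 0. Irf8, a monocyte and dendritic cell factor gene, had 11 lost, 4 gained, and 16 retained, Mpo, the myeloperoxidase gene, had 6, 0, and 4, and Ctsg, the cathepsin G gene, had 5, 1, and 2. With lists of equal size, 35.6% of this list's WT regions were lost (37 regions), near the 31.5% of all regions, and 15.2% gained (12 regions), against 30.6%.

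At the megakaryocyte and erythroid genes gained regions outnumbered lost ones. At the megakaryocyte genes 18.3% of WT regions were lost (11 of 60; 9.52% to 30.4%) and 33.8% of Ep300Δ/Δ regions gained (25 of 74; 23.2% to 45.7%), led by Vwf, the von Willebrand factor gene, and Itgb3, the platelet integrin β3 gene, each with 3 lost and 8 gained. At the erythroid genes 28.4% were lost (19 of 67; 18.01% to 40.7%) and 37.7% gained (29 of 77; 26.9% to 49.4%), and 14 of the 29 gained regions lay at Ank1, the ankyrin gene of red cell membranes, where 7 were lost. Nfe2, an erythroid and megakaryocyte bZIP factor gene, had 3 lost and 1 gained. The megakaryocyte lost share and the erythroid gained share had intervals that left out the background, and the other 2 shares did not. With regions given to the closest protein-coding start, the erythroid gained share was 30.2% (22.0% to 39.4%), which held the background, and the lost share 24.3% (16.5% to 33.5%), which did not. Loss exceeded gain at 4 of the 12 erythroid genes, gain exceeded loss at 4, and 4 were even, and of the megakaryocyte genes 1 had more lost and 5 more gained regions. Lists of equal size gave 16.1% lost and 36.5% gained for the megakaryocyte genes (9 and 27 regions) and 24.6% and 44.2% for the erythroid genes (14 and 34), against 31.5% and 30.6% over all regions, so that the megakaryocyte gained share lay nearer to that of all regions. The share of each lineage among the Lin- cells was not measured in these libraries, and its part in the counts was not tested.

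**Figure D5:**
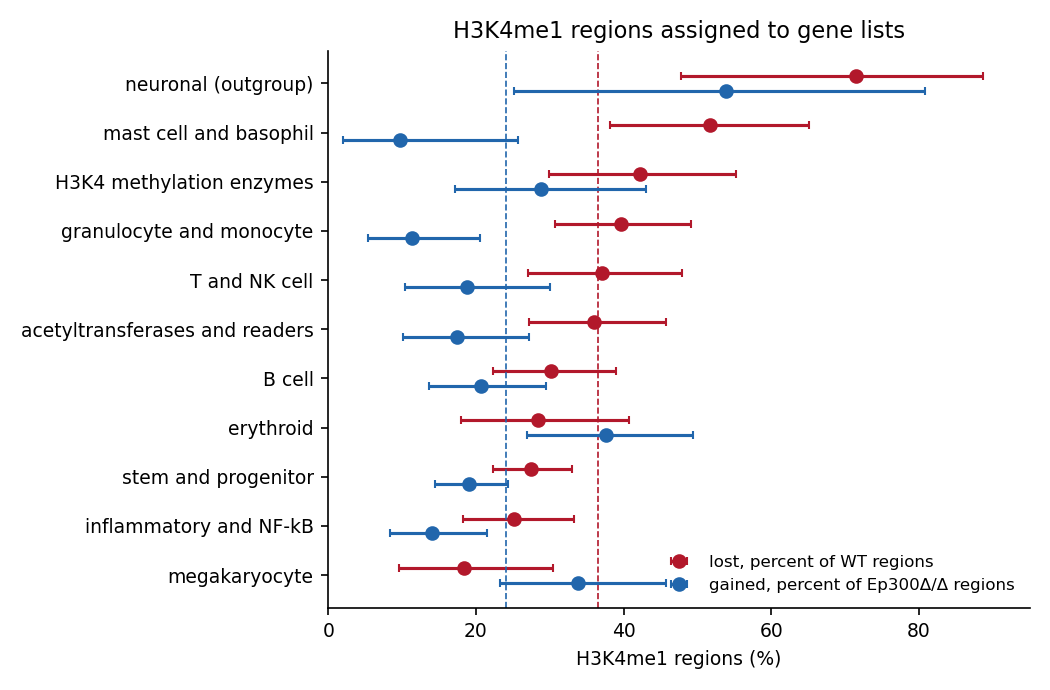
Share of H3K4me1 regions nearest to the genes of each list (horizontal axis, percent) that were lost (red, of WT regions) or gained (blue, of Ep300Δ/Δ regions), with 95% Clopper-Pearson bars; dashed lines mark 36.5% lost and 24.0% gained over all regions. Mast cell and basophil genes, a list that includes Prg2 and Epx, stand at 51.7% lost and 9.68% gained, and megakaryocyte genes at 18.3% and 33.8%.

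Stem and progenitor genes lost less than the background, at 27.4% (79 of 288; 22.4% to 33.0%), and gained 19.0% (49 of 258; 14.4% to 24.3%). Losses were most numerous at Erg, an ETS factor gene, with 18 lost, 5 gained, and 25 retained, and at Kit, the stem cell factor receptor gene, with 17, 0, and 21. Both lost shares were above the 36.5% of all regions. A run of 10 lost regions whose nearest coding gene was Erg spanned 89.8 kb. Gains were most numerous at Runx1, with 12 lost, 8 gained, and 56 retained, and at Hlf, a bZIP factor gene of stem cells, with 0, 7, and 10. The gained share lay below the 24.0% of all regions at Runx1, a gene with many regions, and above it at Hlf. With lists of equal size 22.7% were lost (57 regions) and 24.8% gained (64 regions), against 31.5% and 30.6% over all regions, where lost and gained counts were then nearly even too. Of its WT regions 33.3% were in the strongest bin, which was lost least often over all regions.

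B cell genes lost 30.2% and gained 20.7% of their regions, and T and NK cell genes 37.1% and 18.8%, with intervals that held the background in all 4 cases. With regions given to the closest protein-coding start, 3 of the 4 left it out: B cell genes then lost 30.7% (25.4% to 36.48%) and gained 17.4% (12.8% to 22.9%), and T and NK cell genes lost 43.9% (36.62% to 51.3%), where the background lost share is 36.52%. Bach2, a repressor that guides B cell fate, had 11 lost and 8 gained regions and Ikzf3, which encodes Aiolos, 5 and 1. Ets1 had 10 and 3, Runx3 9 and 1, and Tox 2 and 4. At Notch1, gene body included, 3 were lost, 1 was gained, and 14 were retained, and at Dntt, the terminal transferase gene of early lymphoid cells, 3, 3, and 8.

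Inflammatory and NF-kB genes lost 25.2% (35 of 139; 18.2% to 33.2%) and gained 14.0% (17 regions; 8.40% to 21.5%), both below the background, and 37.4% of their WT regions were in the strongest bin. Nfkb1, the p105 and p50 subunit gene, had 13 lost, 7 gained, and 37 retained, Nfkbia, the inhibitor gene, 5, 1, and 12, and Tnfaip3, which encodes the NF-kB inhibitor A20, 3, 2, and 15. Acetylated regions at Nfkb1 numbered 17 in WT and 6 in Ep300Δ/Δ.

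Among acetyltransferase and acetyl-lysine reader genes, 36.0% of regions were lost (27.1% to 45.7%) and 17.4% gained (10.1% to 27.1%). Kat6b had 9 lost and 3 gained, Brd3 8 and 0, and Kat6a 3 and 4. Brd3, a BET reader gene, had 5 acetylated regions in WT and 0 in Ep300Δ/Δ. At Crebbp 3 were lost, 3 gained, and 4 retained. Among the enzymes that write and erase H3K4 methylation, 42.2% were lost (29.9% to 55.2%) and 28.8% gained (17.1% to 43.1%). The intervals of both lists held the 36.5% and 24.0% of all regions. Lists of equal size gave 30.8% lost and 30.8% gained for these enzymes and 32.3% and 24.4% for the acetyltransferases and readers, against 31.5% and 30.6% over all regions. Of the enzymes' lost and gained regions, 8 and 4 lay at the demethylase gene Kdm5b and 4 and 2 at Kdm1a, which encodes the demethylase LSD1. The enhancer methyltransferase genes themselves had few regions, with 2 lost, 2 gained, and 1 retained at Kmt2c and 3 retained at Kmt2d. The neuronal genes, whose cells the sample should lack, had 21 WT regions, of which 71.4% were lost, and 13 Ep300Δ/Δ regions, of which 53.8% were gained, and no acetylated region. Csmd1 had 5 lost and 0 gained and Dlg2 5 and 3.

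At Myb, the progenitor factor gene (chr10:21124935-21160984), 23 WT and 19 Ep300Δ/Δ regions comprised 6 lost, 2 gained, and 17 retained. The strongest of the lost regions there (chr10:21146232-21146540) had a fold enrichment of 8.998 and carried H3K27ac and H3K4me3 in WT only. It lay inside the gene, 221 bp from an internal Myb transcript start and 646 bp from an Ep300Δ/Δ peak. The region at chr10:21161543-21161877, 559 bp from the start at the gene's 5' end, was retained and carried both of these marks in both genotypes. The strongest retained region of the locus, with 13.6 in WT, was 1 peak in WT and 3 in Ep300Δ/Δ and lost its H3K27ac. Of these regions of the locus, 17 overlapped a Tet2-/- peak and 19 an Ep300Δ/ΔTet2-/- peak. At Tet2 6 regions were lost, 1 gained, and 7 retained. The Hoxb cluster of homeobox genes (chr11:96194316-96368256) held 17 WT and 21 Ep300Δ/Δ regions over 8.67 kb and 12.2 kb, with 4 lost, 8 gained, and 13 retained, and its acetylated regions numbered 3 in each genotype. Of its genes, Hoxb6 and Hoxb7 had 2 gained regions each and Hoxb2, Hoxb3, Hoxb4, and Hoxb9 had 1 each.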

How the data were processed

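ChIP-Seq of 20 libraries from Lin- bone marrow cells of 4 genotypes was performed by the authors, and 12 narrow peak lists, 1 for each genotype of H3K4me1, H3K27ac, and H3K4me3, were used. Samples were grouped by the labels, whose titles write H3Kme1 and H3Kme3; these were read as H3K4me1 and H3K4me3 because the antibody catalog numbers match those of the methods. Reads were trimmed by the authors (cutadapt 1.15) and mapped to mm10 by BWA 0.7.13, Picard was used for duplicates, and MACS2 2.1.1.20160309 called peaks over the H3 library, with those kept that were found in pseudo-replicates at a stated q of 0.05. The deposited lists give a fold enrichment ratio over H3, the −log10 of the P and q values, and a score that was not used. Of autosomal H3K4me1 peaks, 1879 in WT and 4277 in Ep300Δ/Δ had a q above the stated one. A region just under a threshold counts as absent, and the depth of the libraries is unknown, so fold enrichments were ranked within a list and never compared between lists as amounts. The methods describe no scaling of the lists by the spike-in.

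Lists were merged with Python 3.11.15, numpy 2.4.6, and pandas 2.3.3, and lost and gained counts were checked against bedtools 2.31.1, also on 10 simulated pairs of lists, with equal results. Places and nearest transcript starts came from GENCODE release M21 on GRCm38, the assembly of mm10, and sequences from the GRCm38 genome of RefSeq. No test was run, since each genotype and mark has 1 library; shares carry exact Clopper-Pearson intervals (scipy 1.17.1). Named were, per class, the 5 regions with the highest fold enrichment, the 5 highest outside promoters with no other-genotype peak within 5000 bp, and the 5 outside promoters with the highest H3K27ac fold enrichment that changed in H3K27ac the same way; the 5 protein-coding genes with the most lost, most gained, and largest excess of either; the 2 members of each of 11 gene lists with the most lost and the 2 with the most gained regions, of which not all tied for the second place were named; and the Hoxb cluster with Ep300, Crebbp, Tet2, Myb, Notch1, and Dntt, whose counts take in regions in the gene body. The regions, genes, and lists were chosen with earlier results of these data known. The H3 and H3K27me3 samples were not analysed here, and 2 genes that the rule would name are not reported here.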

Additional observations from a re-analysis of the deposited data

Results flagged for a closer look

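For 5 items the balance of gained and lost H3K4me1 regions pointed one way from WT to Ep300Δ/Δ and the other way from Tet2-/- to Ep300Δ/ΔTet2-/-. These differences were not tested, since each arm is 1 library. At the erythroid genes the net count, gained minus lost, was 10 from WT (29 gained, 19 lost) and -3 in the Tet2-deficient pair (13 gained, 16 lost). At the genes of H3K4 methylation enzymes it was -12 from WT and 6 in the Tet2-deficient pair. At Tet2 itself it was -5 and 3, at Myb -4 and 2, each counted over the regions nearest to a start of that gene, and at Hivep3 10 and -3. With the WT and Ep300Δ/Δ lists cut to equal size, the methylation enzymes had 16 lost and 16 gained regions, so their direction from WT was not kept. The erythroid genes (14 lost, 34 gained) and Hivep3 (2 and 17) kept theirs. Over all regions of the whole lists, 36651 were lost and 20130 gained from WT, and 28843 and 19551 in the Tet2-deficient pair. The Tet2-deficient cells have the Tet2 locus altered, and what that does to peaks there was not tested.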

How the results depend on the processing

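Each genotype and mark has 1 library and no call rests on a test, so the alternatives show how counts and shares move. No paired analysis was possible because the 2 groups hold 1 library each and no result comes from a test. Against 36651 lost and 20130 gained regions, a peak of the other list within 500 bp counted as overlap left 13105 gained regions, and within 5000 bp 9711 lost and 5562 gained. A −log10 q of at least 5 in both lists gave 8329 gained regions and 3.77 lost for each gained; required in the defining list only, it gave 13771 lost, 3206 gained, and a ratio of 4.30. Lists of equal size gave a ratio of 1.04. Regions above the median fold of their list comprised 12031 lost and 5944 gained. The lost and gained shares were 37.3% and 24.9% with at least 50% of the shorter peak covered, 24.8% and 15.6% within 500 bp, 9.68% and 6.63% within 5000 bp, 50.8% and 21.5% with the q limit in both lists, 22.4% and 8.29% with it in the defining list, 31.5% and 30.6% with equal lists, 23.6% and 13.8% above the median fold, and 38.1% and 23.7% with only peaks past the stated q of 0.05. Lost regions exceeded gained ones under each of these settings.

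Promoters of 1000 bp on either side held 17.4% of lost, 25.8% of gained, and 31.9% of retained regions, and promoters of protein-coding genes 26.5%, 35.7%, and 39.9%, and with equal lists 43.4% of gained regions were at promoters, so the order of the classes was kept. H3K27ac in WT marked 14.0% of lost regions when a peak within 500 bp counted, 4.83% with H3K27ac peaks of a −log10 q of at least 5, 3.98% outside promoters, and 7.22% with equal lists. H3K27ac in Ep300Δ/Δ marked 14.4%, 5.75%, and 2.22% of gained regions under the first 3 of these settings, and H3K27ac in WT alone marked 12.7% (within 500 bp), 11.5% (outside promoters), and 11.9% (equal lists) of retained regions. H3K4me1 loss at regions with H3K27ac in both, lost, or in neither was 6.85%, 15.4%, and 37.7% with equal lists, and 12.7% and 41.5% for the first and last in windows around the summit. In Tet2-deficient cells, the peak was missing after Ep300 deletion at 41.9%, 49.4%, 53.5%, and 56.1% of lost regions from the strongest to the weakest of 4 strength bins, and at 5.15%, 11.3%, 14.5%, and 16.5% of retained regions, and at 49.9% and 11.1% in windows around the summit. Of the shares of gene lists, 2 left their interval, both with equal lists: the gained share rose to 24.8% for stem and progenitor and to 30.6% for B cell genes. Of the 22 motif contrasts, 4 changed whether the intervals overlapped when the window was widened to 250 bp on either side, and none of those changed direction. The equal lists for H3K27ac and H3K4me3, the mast cell and basophil list without Prg2 and Epx, the window settings, the stated q, and the equal lists for loss by H3K27ac were chosen after seeing the data. Because the lists carry no read counts, loss of a weak peak and a fall just under the threshold cannot be told apart, and the causes of these shifts were not tested.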

Other observations

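The following runs of consecutive lost regions were picked after their values were seen, and longer runs lay at other genes. A run of 13 lost regions lay over 58.1 kb by Ear6 and Mettl17 (chr14:51827371-51885497), where Ear6 is an eosinophil-associated ribonuclease gene. In that run 8 regions had a Tet2-/- peak and 1 an Ep300Δ/ΔTet2-/- peak. A run of 13 lost regions over 27.8 kb near Ctcfl, the germ-line paralog of Ctcf, had 7 Tet2-/- peaks and 0 Ep300Δ/ΔTet2-/- peaks. Of all lost regions, 49.9% had a Tet2-/- peak and 33.1% an Ep300Δ/ΔTet2-/- peak. Other runs differed, such as one of 15 lost regions by Osbpl10 and Stt3b with 2 and 2. The longest run of gained regions held 9.

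The chromosome Y lists differed between the libraries for the other marks, with 7 H3K4me3 and 4 H3K27ac peaks in WT against 1 and 0 in Ep300Δ/Δ, and the H3K4me1 lists held 0 in each. On chromosome X there were 1132 H3K4me1 peaks in WT and 802 in Ep300Δ/Δ. Both sexes were used in the study, and the mix of sexes in each library was not given in the sources used here.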
